A study of Homo sapiens with 16 samples.

Results

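The 10 genes examined here, which the tumour suppressor p53 is known to switch on (CDKN1A, MDM2, BTG2, PPM1D, BBC3, TP53INP1, PLK3, SESN1, ZMAT3 and PLK2), were followed through 1 h of hyperosmotic stress by CUT&Tag, which cuts and tags DNA beside an antibody's target. Their members are the deposited intervals that overlap one of the genes or lie within 10 kb of one of its GENCODE release 44 transcript starts, 39 of 74404 intervals in all. The cells were HEK293, a human embryonic kidney cell line, of the genotype eGFP-YAP. Vehicle cells and cells given 200 mM sorbitol for 1 h were compared with antibodies to CTCF, RAD21, GFP (which reads eGFP-YAP) and H3K27ac, with 2 libraries in each of 8 groups, 16 in all; per the series' design text all cells were first starved of serum. By the column names vehicle belongs to 0 h and sorbitol to 1 h, whereas the treatment protocol has controls collected in parallel. The labels do not say whether the replicates came from separate cultures, or whether the eGFP-YAP cells are 1 clone, so p-values measure the spread between these libraries, which may be technical.

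p53 is a transcription factor that binds a response element made of a pair of half-sites and activates genes for cell cycle arrest, apoptosis, DNA repair and its own inhibition. In HEK293 cells the adenoviral E1B protein of the transforming virus binds p53 and restrains it, and p53 itself was not measured here. CTCF is a DNA-binding protein at loop anchors and boundaries, RAD21 is a subunit of cohesin, which extrudes loops, YAP is a coactivator that binds DNA through TEAD factors, and H3K27ac is an acetylation of histone H3 found at active promoters and enhancers.

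The 39 intervals were 6 at BBC3, 1 at BTG2, 5 at CDKN1A, 2 at MDM2, 1 at PLK2, 5 at PLK3, 4 at PPM1D, 8 at SESN1, 2 at TP53INP1 and 5 at ZMAT3. Of these, 32 overlapped the gene, 7 lay only within 10 kb of a start, and 17 lay within 1 kb of a start of their own gene. Each is named here by the distance of its centre from the start of the gene's canonical transcript, with a minus sign upstream. For 16 of the 39 the nearest annotated start belonged to another gene: the PLK3 intervals at +7.7 and +13.4 kb lay at BTBD19 starts, and the start intervals of TP53INP1 and SESN1 also covered starts of NDUFAF6 and CEP57L1. Values at these cannot be given to 1 gene alone.

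The sequences below show what the members' intervals hold of the 2 DNA elements that bear on the question, in hg38. Both half-sites of the p53 element, directly joined, with at most 2 mismatches on either strand, were found in 3 of 39 intervals (7.69%) and in 1.42% of all 74404. They are printed in full, 20 bases each on the plus strand. The first lies at chr6:36667258-36667277 and has 1 mismatch, the second at chr12:68808923-68808942 with 2, and the third at chr3:179046875-179046894 with 2.
CDKN1A -11.4 kb: AGACAAGCCCGGGCAAGGCC
MDM2 +0.1 kb: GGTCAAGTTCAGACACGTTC
ZMAT3 +24.9 kb: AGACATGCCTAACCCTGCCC
A stricter core, with CATG in both half-sites, was found in 0 of 39 intervals and in 1.08% of all.

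The CTCF consensus, with at most 1 mismatch on either strand, was found in 5 of 39 intervals (12.8%) and in 18.4% of all. These matches are shown because they let the CTCF changes described here be read beside the letters CTCF prefers. Each is printed as 30 bases with the 14 bases of the match in capitals. The BBC3 match lies at chr19:47230647-47230676 (plus strand), the ZMAT3 matches at chr3:179069333-179069362 and chr3:179015697-179015726 (plus), the PLK2 match at chr5:58460905-58460934 (minus) and the PPM1D match at chr17:60638910-60638939 (minus).
BBC3 +0.5 kb: cgcactggCCGCCAGGGGGCGCtgccgagc
ZMAT3 +2.6 kb: ctgcctccCCCCCAGATGGCGCcgtctaac
ZMAT3 +56.1 kb: tagacagtCCACAAGGTGGCACtagatacc
PLK2 -0.2 kb: ggaacattCCACAAGATGGCGCccttgctt
PPM1D +38.7 kb: gcaggcagCCACTAGAGGGCACctttgcta
The PPM1D match has 0 mismatches and each of the others has 1. A match is a description of letters and not a bound site.

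Sequencing depth set how much of this could be tested. Libraries held 1187939 to 8842656 counts, and a test was made only where the counts passed a filter with a minimum of 10. All 39 intervals were tested for at least 1 target and 17 for all 4. The share of counts on the mitochondrial genome was 1.96% to 2.08% for H3K27ac. For CTCF it was 15.7% and 19.95% in vehicle and 32.8% and 33.9% in sorbitol, for RAD21 34.3% and 38.5% against 44.8% and 46.0%, and it was 55.4% and 57.8% in the eGFP-YAP sorbitol libraries against 36.5% and 38.1% in vehicle. Its part in the results was not tested. As a check on the cell line, all 5 embryonic kidney genes examined (PAX2, LHX1, SALL1, EYA1 and WT1) had start-site intervals, with 14.1 to 63.4 H3K27ac CPM per kb in vehicle. PTPRC, CD3E, ALB and HBB had none, MYOD1 had 8.84 and CDX2, an intestinal gene, had 53.8 CPM per kb. The median over all intervals within 1 kb of a start was 24.6 CPM per kb. PAX2 (22.7) and EYA1 (14.1) lay below that median, and of the kidney genes only SALL1 (63.4) lay above CDX2.

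In unstressed cells the 10 genes were acetylated at different levels. CPM here are on TMM-scaled library sizes of the tested intervals, and levels between genes are given per kb, summed over a gene's intervals as mean ± SD (n = 2). In vehicle, H3K27ac stood at 57.7 ± 4.43 at BTG2, an antiproliferative cofactor, above the ranges of all the other genes. MDM2, the ubiquitin ligase that degrades p53, had 45.1 ± 4.80, and PPM1D, the WIP1 phosphatase that shuts the p53 response down, had 43.0 ± 5.74, and the ranges of this pair overlapped. The PPM1D range also overlapped that of BBC3. BBC3, which encodes the proapoptotic BH3 protein PUMA, had 39.0 ± 0.81, and CDKN1A, which encodes the cell cycle inhibitor p21, had 38.5 ± 0.53, and the BBC3 and CDKN1A ranges overlapped. PLK2 (30.6 ± 0.96), SESN1 (30.2 ± 1.42) and TP53INP1 (29.4 ± 3.55) overlapped one another. PLK3 (23.5 ± 0.09) and ZMAT3 (18.4 ± 0.40) were lowest, each clear of its neighbours.

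CTCF levels followed a different order. In vehicle the PLK2 start had the most CTCF, 36.1 ± 0.62 CPM per kb, followed by BBC3 with 23.0 ± 0.27, CDKN1A with 20.7 ± 1.41 and PLK3 with 15.4 ± 1.25. TP53INP1 had the least, 2.98 ± 1.03, with SESN1 at 4.95 ± 0.47 and ZMAT3 at 5.65 ± 1.45 above it; the ranges of SESN1 and ZMAT3 overlapped. In sorbitol BBC3 had 165 ± 8.05 CPM per kb of CTCF, while PLK2 had 34.5 ± 6.99.

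Across the members, most CTCF calls were higher in sorbitol and most H3K27ac calls lower, and BBC3 held 6 of the CTCF and 6 of the H3K27ac calls. An interval is called where its adjusted p is under 0.05 by edgeR's quasi-likelihood test with Benjamini-Hochberg adjustment over all tested intervals of that antibody. For CTCF 17 of 28 tested intervals were called (60.7%), 15 higher and 2 lower, beside 40.2% of all tested intervals (19.5% higher and 20.7% lower). For H3K27ac 16 of 36 were called (44.4%), 1 higher and 15 lower, beside 23.1% (8.59% higher and 14.5% lower). For RAD21 3 of 17 were called, all higher, beside 4.79% (3.34% higher and 1.45% lower), and for eGFP-YAP 5 of 21, all higher, beside 6.83% (5.34% higher and 1.49% lower). Of the intervals with no lower call, 0 for RAD21 and 3 for eGFP-YAP had an unadjusted p under 0.05 in the lower direction. Some members passed the count filter only through the group where they were higher, so that a difference was built in: 6 of the 28 for CTCF (3 called), 3 of the 17 for RAD21 (2 called, BBC3 +4.9 and +4.0 kb) and 3 of the 36 for H3K27ac (0 called). Without them the calls were 13 higher and 1 lower of 22 for CTCF, 1 of 14 for RAD21 and 16 of 33 for H3K27ac. Median log2 fold changes were 0.73 for CTCF, 0.43 for RAD21, 0.05 for eGFP-YAP and -0.14 for H3K27ac, beside -0.06, -0.01, -0.04 and 0.02 over all tested intervals.

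**Figure D1:**
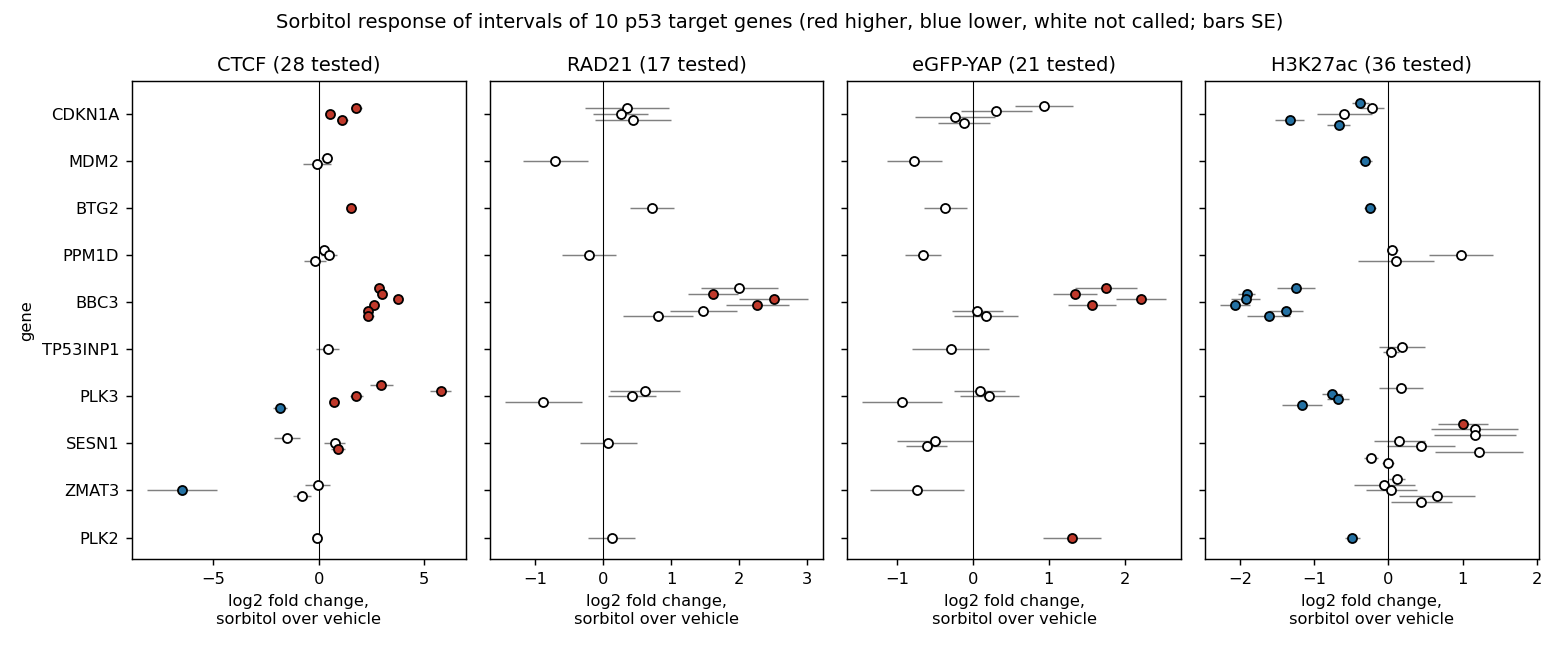
Log2 fold change of sorbitol over vehicle (horizontal axis, with SE bars) for each tested interval of the 10 genes (vertical axis), in 1 panel per antibody with its own scale. Red points were called higher, blue points lower and white points were not called. All 6 BBC3 points are red for CTCF and blue for H3K27ac.

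Since intervals of 1 gene share their surroundings, the counts were also taken without BBC3. CTCF then had 11 calls in 22 tested intervals (50%), 9 higher and 2 lower, beside 40.2% of all (19.5% higher and 20.7% lower). PLK3 +5.9 and +13.4 kb and ZMAT3 +2.6 kb, among these calls, passed the count filter only through 1 group. H3K27ac had 10 calls in 30 (33.3%), 1 higher and 9 lower, beside 23.1% of all (8.59% higher and 14.5% lower). No RAD21 call remained among 11, where 1 had an unadjusted p under 0.05, and 1 eGFP-YAP call remained among 15. The RAD21 and eGFP-YAP shares outside BBC3 therefore lay at or near the background of 4.79% and 6.83%.

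Intervals at starts were also counted apart. Among intervals within 1 kb of a start of their own gene, CTCF was higher at 10 of 16 and lower at 0, beside 29.1% higher and 10.3% lower over all tested start-site intervals; 0 of the 16 had an unadjusted p under 0.05 in the lower direction. H3K27ac was lower at 11 of 17 and higher at 0, beside 26.9% lower and 9.94% higher, and 0 of the 17 had an unadjusted p under 0.05 in the higher direction. RAD21 was higher at 3 of 13 and lower at 0, beside 2.76% higher and 0.49% lower, and eGFP-YAP was higher at 5 of 16 and lower at 0, beside 2.91% higher and 1.39% lower. All 3 RAD21 calls were at BBC3, where +4.9 and +4.0 kb passed the count filter only through sorbitol. Of the eGFP-YAP calls 4 were at BBC3 and 1 at PLK2. Every BBC3 start-site interval was also among the CTCF and H3K27ac calls. Start-site counts were not made without BBC3. Away from the starts, CTCF was called higher at 5 and lower at 2 of 12 intervals, and H3K27ac higher at 1 and lower at 4 of 19. Over all tested intervals that lay within 1 kb of no start the shares were 11.7% higher and 29% lower for CTCF and 7.65% higher and 5.88% lower for H3K27ac; some of these member intervals lay at starts of other genes. RAD21 was called at 0 of 4 such members (0 with an unadjusted p under 0.05), beside 4.41% higher and 3.22% lower, and eGFP-YAP at 0 of 5 (0), beside 10.6% higher and 1.7% lower, by edgeR. Of the CTCF calls away from the starts, PLK3 +5.9 and +13.4 kb (higher) and ZMAT3 +2.6 kb (lower) passed the filter only through 1 group. Their difference was thus built in. PPM1D +41.8 and SESN1 +21.3 kb, tested for CTCF and not called, passed it only through vehicle. No count by position was made without these intervals.

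BBC3 (ENSG00000105327.18, chr19:47220822-47232766, minus strand) was called at all 6 of its intervals for both CTCF and H3K27ac. These intervals lay over and between its alternative starts and 10 kb upstream. At +4.0 kb (chr19:47226923-47227444) CTCF stood at 6.36 and 7.33 CPM in vehicle and at 97.3 and 86.4 CPM in sorbitol. CTCF thus rose by 3.75 ± 0.20 on the log2 scale (SE; adjusted p = 7.0e-13). At +0.5 kb (chr19:47230374-47230989), the interval with the CTCF consensus printed above, CTCF stood at 32.4 and 29.3 CPM in vehicle and at 229 and 218 in sorbitol, a log2 fold change of 2.85 ± 0.14. The groups did not overlap at either interval. Over all 6 intervals the CTCF rise lay between 2.33 and 3.75 on the log2 scale, and each call held under all 15 alternative analyses.

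Cohesin and YAP rose at part of the same locus. At +4.0 kb RAD21 was 4.38 and 7.09 CPM in vehicle and 22.7 and 39.7 in sorbitol, from 12, 8, 23 and 35 counts (log2 fold change 2.51 ± 0.51, adjusted p = 0.016). This interval and +4.9 kb passed the RAD21 count filter only through the sorbitol libraries. RAD21 was also called higher at +4.9 kb (2.27) and at +3.0 kb (1.62), while +0.5 kb missed the threshold with 2.00 (adjusted p = 0.061). The +4.9 and +3.0 kb calls were lost with scaling to the total count (adjusted p = 0.062 and 0.15) and that at +4.9 kb also with GC-corrected offsets. At +4.0 kb eGFP-YAP was 5.84 and 4.94 CPM in vehicle and 23.8 and 27.1 in sorbitol (2.22 ± 0.33, adjusted p = 0.00012). It was called higher at +0.5, +4.9 and +3.0 kb as well, by 1.75, 1.58 and 1.35. At -0.1 and -10.0 kb eGFP-YAP changes were 0.05 and 0.17 and were not called. With scaling to the total count, which moves the median of all tested eGFP-YAP intervals to -1.46, none of these 4 rises was called and +3.0 kb stood at -0.063. Without the second vehicle library +4.9 and +0.5 kb lost their calls (adjusted p = 0.11 and 0.14), and without the first +3.0 kb did (0.28).

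BBC3 lost H3K27ac at the same intervals. At +3.0 kb (chr19:47227529-47228894), its most acetylated start interval, H3K27ac fell from 68.8 and 64.9 CPM in vehicle to 16.7 and 18.9 in sorbitol. On the log2 scale the change was -1.91 ± 0.12 (adjusted p = 2.1e-15). The other intervals fell by between 1.25 and 2.07 on the log2 scale. The vehicle and sorbitol libraries did not overlap at any of the 6. Summed over the gene, H3K27ac went from 39.0 ± 0.81 to 11.3 ± 0.33 CPM per kb (SD, n = 2).

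**Figure D2:**
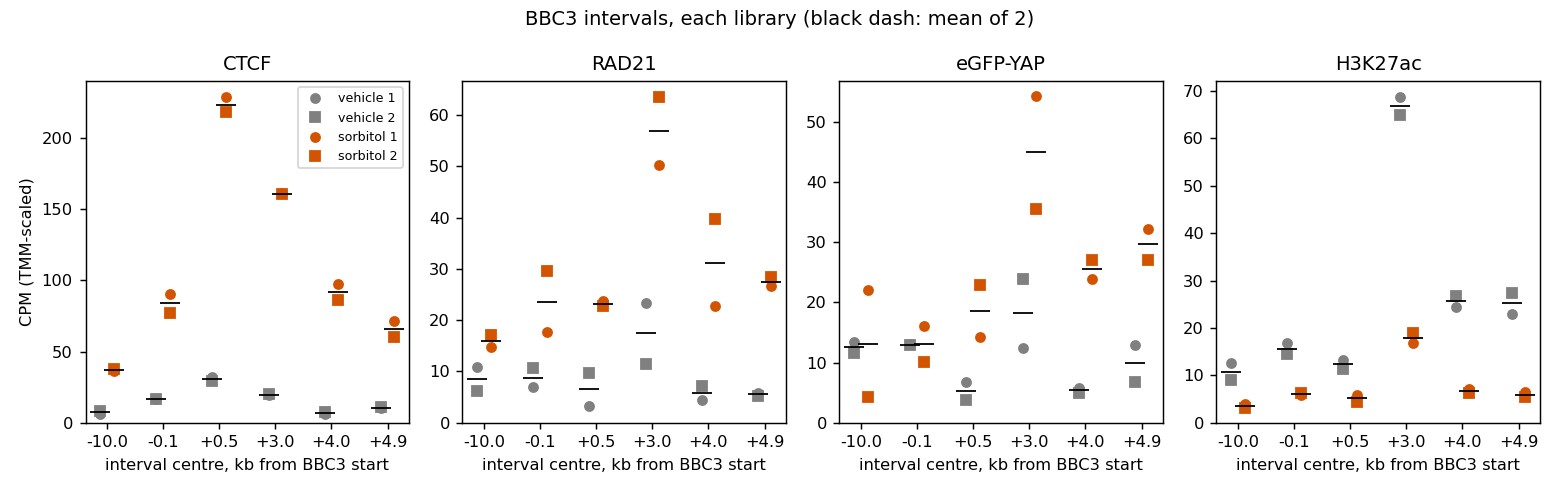
CPM (vertical axis, from 0) in each library at the 6 BBC3 intervals, placed in order of their distance from the canonical start in kb, with 1 panel per antibody. Grey symbols are vehicle, orange symbols sorbitol, and black dashes the mean of 2 libraries. CTCF is higher and H3K27ac lower in both sorbitol libraries at every interval.

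To show the base composition of this locus, 300 bases from the centre of the +4.9 kb interval (chr19:47226170-47226469, plus strand, 41 CpG) are printed beside 300 bases from a GC-poor SESN1 intron interval (chr6:109073403-109073702, 3 CpG), where the CTCF change was -1.51 (adjusted p = 0.0504). That SESN1 interval passed the CTCF count filter only through the vehicle libraries, so a fall was built in. Each CpG is in capitals.
BBC3 +4.9 kb: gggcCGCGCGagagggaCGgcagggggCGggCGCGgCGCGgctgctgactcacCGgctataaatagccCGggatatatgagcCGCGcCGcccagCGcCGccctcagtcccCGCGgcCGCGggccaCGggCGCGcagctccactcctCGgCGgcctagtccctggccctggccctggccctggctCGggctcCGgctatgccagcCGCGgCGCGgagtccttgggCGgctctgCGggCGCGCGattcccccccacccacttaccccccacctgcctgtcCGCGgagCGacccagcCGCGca
SESN1 +21.3 kb: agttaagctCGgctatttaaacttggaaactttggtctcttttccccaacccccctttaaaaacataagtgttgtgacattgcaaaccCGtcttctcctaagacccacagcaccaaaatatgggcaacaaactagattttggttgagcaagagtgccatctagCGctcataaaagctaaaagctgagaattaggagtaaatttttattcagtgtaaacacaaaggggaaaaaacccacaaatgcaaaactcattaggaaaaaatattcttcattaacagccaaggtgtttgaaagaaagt

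The arrest genes CDKN1A and BTG2 also had higher CTCF and lower H3K27ac at their starts. CDKN1A (ENSG00000124762.14, chr6:36676460-36687337, plus strand) had its most acetylated start interval at +0.9 kb (chr6:36679126-36680090, annotated as intron). CTCF there was 9.00 and 12.5 CPM in vehicle and 39.8 and 33.4 in sorbitol, a rise of 1.79 ± 0.25 on the log2 scale (adjusted p = 1.0e-05) that held under all 15 alternatives. Both sorbitol libraries lay above both vehicle libraries. CTCF was also called higher over the canonical start (1.12) and at +1.8 kb (0.55). Over the start the call was lost with scaling to the total count (0.13) and with GC-corrected offsets (0.36). At +1.8 kb it was lost in 9 of 15 alternatives, among them leaving out the second vehicle library (adjusted p = 0.12) or the first sorbitol library (0.10), and scaling to the total count turned it to -0.43.

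H3K27ac fell at the CDKN1A start by 0.67 on the log2 scale, a call lost in 1 fit on all 16 libraries (adjusted p = 0.19), and at +0.9 kb by 0.38, a call lost in 8 of 15 alternatives, among them leaving out the second sorbitol library (adjusted p = 0.15). RAD21 and eGFP-YAP were not called at any CDKN1A interval, with eGFP-YAP at 0.94 ± 0.39 (adjusted p = 0.18) at +0.9 kb. The largest H3K27ac fall of the gene was upstream, in the interval that holds the p53 element match with 1 mismatch (chr6:36666975-36667605, intergenic). H3K27ac stood there at 25.5 and 21.1 CPM in vehicle and at 7.56 and 11.1 in sorbitol, which is -1.33 ± 0.20 on the log2 scale (adjusted p = 1.8e-06). The groups did not overlap, and the call held under all 15 alternatives. The neighbouring interval at -10.8 kb, with 20 to 45 counts, was not called. Of the 300 bases printed from the centre of the match (chr6:36667118-36667417, plus strand), the match is in capitals.
CDKN1A -11.4 kb: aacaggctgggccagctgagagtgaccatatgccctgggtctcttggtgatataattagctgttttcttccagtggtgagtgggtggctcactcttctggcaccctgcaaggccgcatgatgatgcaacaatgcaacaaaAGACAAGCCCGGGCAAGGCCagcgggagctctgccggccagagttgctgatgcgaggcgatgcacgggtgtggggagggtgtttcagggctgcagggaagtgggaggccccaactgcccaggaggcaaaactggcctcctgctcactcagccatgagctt

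BTG2 (ENSG00000159388.6, chr1:203305491-203309602) had 1 interval, over its start (chr1:203305104-203307028). CTCF was 16.8 and 20.3 CPM in vehicle and 66.7 and 41.7 in sorbitol, a rise of 1.56 ± 0.22 on the log2 scale (adjusted p = 9.6e-06). H3K27ac was 117 and 105 CPM in vehicle and 91.4 and 95.6 in sorbitol, a fall of 0.25 on the log2 scale whose call was lost in 9 of 15 alternatives, among them leaving out the first vehicle library (adjusted p = 0.21) or the first sorbitol library (0.14). RAD21 was 23.7 and 34.5 against 48.3 and 45.4 CPM, not called (0.72 ± 0.32, adjusted p = 0.20) although the groups did not overlap.

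The feedback genes MDM2 and PPM1D had 1 call at their starts. At MDM2 (ENSG00000135679.27), the interval over the start (chr12:68807468-68809094, with a p53 element match) had H3K27ac of 84.5 and 96.3 CPM in vehicle and 75.2 and 70.2 in sorbitol. That fall of 0.31 on the log2 scale was called (adjusted p = 0.0059), and the call was lost in 8 of 15 alternatives, among them leaving out the second vehicle library (adjusted p = 0.13) or the second sorbitol library (0.060). CTCF was 17.1 and 16.8 against 18.6 and 25.5 CPM (0.38 ± 0.26, not called). The start interval of PPM1D (ENSG00000170836.13, chr17:60599411-60601503) had the most H3K27ac counts of the members, 139 and 117 CPM in vehicle and 134 and 131 in sorbitol, with a change of 0.05 ± 0.08. It was not called for any antibody; eGFP-YAP there was 38.1 and 31.4 against 22.0 and 22.0 CPM (-0.66 ± 0.24, adjusted p = 0.12), and 5 of the alternatives called it lower.

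TP53INP1 (ENSG00000164938.14), a proapoptotic and autophagy-linked nuclear protein, was not called for any antibody at its 2 intervals. Its start interval had H3K27ac of 39.6 and 47.9 CPM in vehicle and 46.5 and 43.1 in sorbitol. CTCF counts there were 22 and 23 in vehicle and 16 and 7 in sorbitol, too few to show a modest difference. The change of 0.42 had an SE of 0.54.

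PLK3 and PLK2 are polo-like kinase genes. PLK3 (ENSG00000173846.13, chr1:44800377-44805990), a stress-responsive kinase, had a CTCF rise at its start interval at -0.3 kb from 33.2 and 31.0 to 51.7 and 53.5 CPM (0.71 ± 0.17, adjusted p = 0.0025). With GC-corrected offsets that change was -0.025 and with scaling to the total count -0.27. H3K27ac fell there by 0.68 on the log2 scale, from 30.5 and 32.9 to 20.7 and 18.6 CPM, a call lost in 1 fit on all 16 libraries (adjusted p = 0.081). Beyond the end of the gene, at +5.9 kb (chr1:44806000-44806491, nearest start DYNLT4), CTCF had 4 and 1 counts in vehicle and 54 and 55 in sorbitol. This is 0.62 and 0.24 against 27.9 and 26.99 CPM. The summed counts, 5 against 109, gave a ratio of 58.6 with a 95% exact counting interval of 24.4 to 184, and the interval passed the count filter only through the sorbitol libraries, so its call had a difference built in. The BTBD19 start intervals at +7.7 and +13.4 kb also rose in CTCF, by 1.79 and 2.98, the latter again tested only through its sorbitol counts. H3K27ac was called lower at +7.7 kb (-0.76), a call that held under all 15 alternatives. Upstream at -6.6 kb (chr1:44793532-44794047) both CTCF (-1.84 ± 0.34) and H3K27ac (-1.16 ± 0.27) fell; without the first vehicle library the H3K27ac call was lost (adjusted p = 0.072).

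PLK2 (ENSG00000145632.15), the other stress-induced polo-like kinase, had 1 interval over its start (chr5:58459370-58461175). CTCF was 64.4 and 66.0 CPM in vehicle and 53.3 and 71.1 in sorbitol, so the groups overlapped (-0.06 ± 0.16). With GC-corrected offsets it was called lower, at -0.69, and with scaling to the total count at -1.04. H3K27ac fell from 56.6 and 54.1 to 38.0 and 41.1 CPM, by 0.49 on the log2 scale (adjusted p = 0.0005), and this call was lost in 1 of 15 alternatives. eGFP-YAP was 7.14 and 5.13 CPM in vehicle and 15.5 and 15.2 in sorbitol (1.31 ± 0.38, adjusted p = 0.046). That call held in only 2 of 14 alternatives, and leaving out any 1 of the 4 libraries ended it (adjusted p = 0.051 to 0.48).

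SESN1 and ZMAT3, a stress-induced inhibitor of mTORC1 signalling and an RNA-binding zinc finger protein, had no H3K27ac call at their starts. SESN1 (ENSG00000080546.14, chr6:108984309-109094846) had H3K27ac of 75.4 and 80.3 CPM in vehicle and 78.7 and 76.7 in sorbitol at its main start interval (0.00 ± 0.08). At its second start interval, at +85.5 kb, H3K27ac was 54.5 and 55.4 CPM in vehicle and 45.9 and 47.5 in sorbitol (-0.24 ± 0.10, adjusted p = 0.083), so the groups did not overlap. At the main start interval CTCF went from 10.7 and 8.51 to 24.3 and 12.8 CPM (0.92 ± 0.33, adjusted p = 0.030), a call that held in 4 of 14 alternatives. Leaving out either vehicle library or the first sorbitol library ended it. In the SESN1 intron at +12.5 kb (chr6:109082151-109082636) H3K27ac was 2.42 and 4.25 CPM in vehicle and 6.91 and 6.46 in sorbitol. This was the only member interval called higher for H3K27ac (1.00 ± 0.33, adjusted p = 0.026), it rested on 15, 26, 64 and 52 counts, and it held in 6 of 14 alternatives. It was lost without the first vehicle library or either sorbitol library.

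ZMAT3 (ENSG00000172667.11, chr3:178960121-179072215) had H3K27ac of 47.1 and 45.4 CPM in vehicle and 53.9 and 45.7 in sorbitol at its start (0.11 ± 0.11, not called). In its intron at +2.6 kb (chr3:179069052-179069366, with a CTCF consensus match) CTCF had 19 and 13 counts in vehicle and 0 in both sorbitol libraries. Against a floor of 3 counts per library it was at least 1.99-fold lower. The interval was called (adjusted p = 0.0040) but passed the count filter only through the vehicle libraries, so a difference was built in, and it lost its call without the second vehicle library (adjusted p = 0.12). The interval at +56.1 kb, also with a match, was not called (-0.78 ± 0.44).

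**Figure D3:**
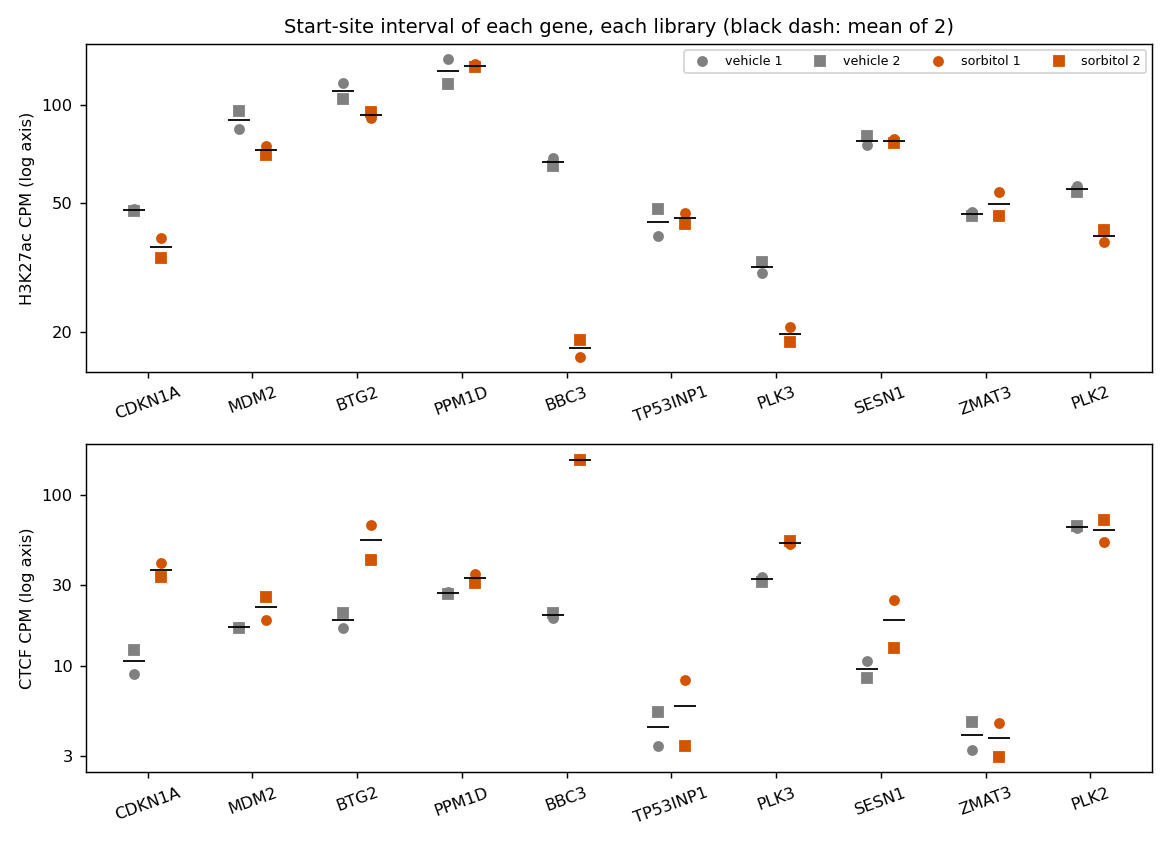
CPM on a log axis in each library for the most acetylated start-site interval of each gene, with H3K27ac in the upper panel and CTCF in the lower. Grey symbols are vehicle, orange symbols sorbitol, and black dashes the mean of 2 libraries. The gap between the groups is widest at BBC3 in both panels, with H3K27ac falling from 68.8 and 64.9 to 16.7 and 18.9 CPM.

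H3K27ac within a gene body was also set against the starts of the same gene, a ratio inside each library that needs no scaling between libraries. CDKN1A, SESN1 and ZMAT3 had at least 50 counts in both places. SESN1's log2 ratio of body to start intervals was -3.61 and -3.22 in vehicle and -2.56 and -2.60 in sorbitol, a change of 0.84. CDKN1A changed by 0.26 and ZMAT3 by 0.11. The SESN1 and CDKN1A groups did not overlap and those of ZMAT3 did. The exact two-sided permutation p was 0.33 for SESN1 and CDKN1A, the smallest that 2 against 2 libraries can give. Over 3085 protein-coding genes the median change was 0.16, and 45.8% had sorbitol libraries wholly above vehicle.

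Whether the antibodies differed in response at the same interval was tested as an interaction over 8 libraries. The H3K27ac response lay below the CTCF response at 13 and above it at 3 of 38 tested intervals, so 16 were called, beside 21.6% of all tested (9.3% below and 12.3% above). The eGFP-YAP response lay below that of CTCF at 13 and above it at 1 of 29, beside 11.6% (7.97% below and 3.59% above). H3K27ac lay below eGFP-YAP at 5 and above it at 2 of 35, beside 6.27% (2.55% below and 3.72% above). PLK3 +5.9 and +13.4 kb, SESN1 +21.3 kb and ZMAT3 +2.6 kb, among the called differences from CTCF, had a CTCF difference built in. These intervals passed the CTCF count filter only through 1 group, and no count was made without them. At BBC3 +4.0 kb the H3K27ac response was 5.32 ± 0.29 (SE) below that of CTCF on the log2 scale. RAD21 and CTCF differed at 0 of 28 intervals by edgeR's test, beside 0.83% of all (0.704% below and 0.127% above), with 6 under an unadjusted p of 0.05. The smallest p among the BBC3 intervals was at +3.0 kb (-1.34 ± 0.36, adjusted p = 0.064). This does not show that the 2 proteins responded alike.

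The members' responses ran with base composition. Member intervals had 34.4% to 78.2% GC with a median of 59.2%, against 54.2% over all intervals. Across member intervals Pearson's r between GC content and the log2 fold change was 0.68 for CTCF (28 intervals), 0.70 for RAD21 (17), 0.56 for eGFP-YAP (21) and -0.61 for H3K27ac (36). Over all tested intervals it was 0.46, 0.32, 0.05 and -0.22. These are descriptions: the intervals share libraries, and several share a gene. For CTCF, RAD21 and H3K27ac they include intervals that passed the count filter only through a single group, whose difference was built in. ZMAT3 +2.6 kb (-6.48, 42.2% GC) and PLK3 +5.9 kb (5.78, 73.2% GC), the lowest and highest CTCF changes, were among them. No r was computed without these intervals. Among members of at least 70% GC the median CTCF change was 2.62 over 5 intervals, beside 0.87 over all tested intervals of that class; among members under 45% GC it was -0.47 over 6, beside -1.06. For H3K27ac the same classes had -1.25 over 5 beside -0.30, and 0.44 over 7 beside 0.27. Under 45% GC, PPM1D +41.8 kb, SESN1 +21.3 kb and ZMAT3 +2.6 kb passed the CTCF count filter only through vehicle, so a fall was built in. At 70% GC or more, PLK3 +5.9 kb passed it only through sorbitol. For H3K27ac, SESN1 +71.9 and +21.3 kb, both under 45% GC, passed only through sorbitol. With GC-corrected offsets the 6 BBC3 intervals kept their CTCF and H3K27ac calls, with CTCF changes of 1.21 to 3.31 in place of 2.33 to 3.75 and H3K27ac changes of -1.82 to -0.93 in place of -2.07 to -1.25.

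**Figure D4:**
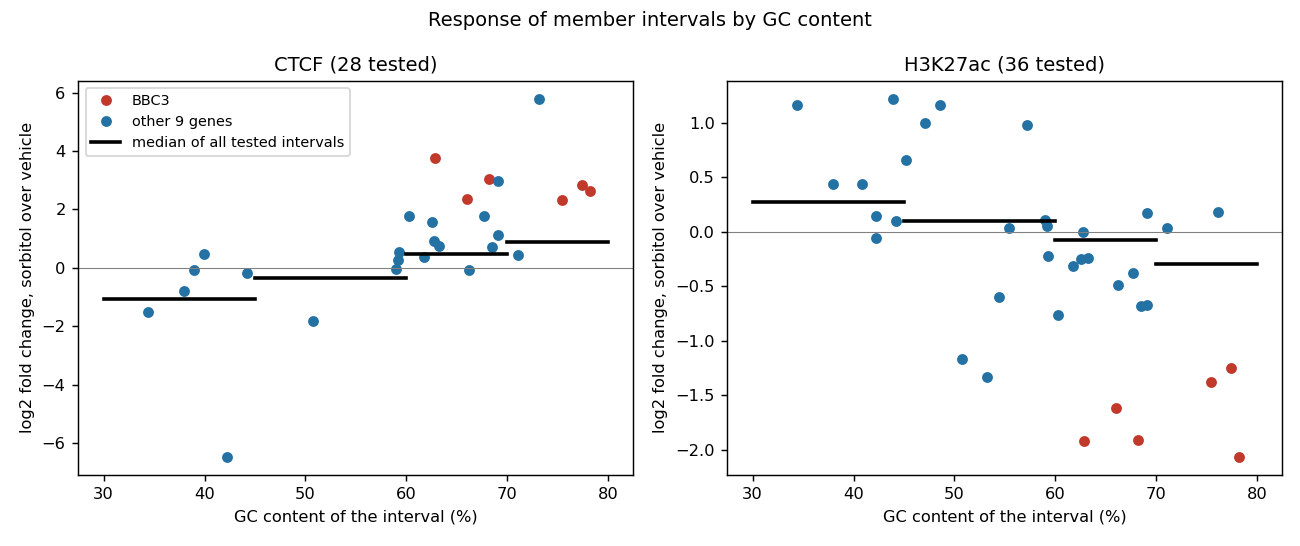
Log2 fold change of sorbitol over vehicle (vertical axis) against the GC content of the interval in percent (horizontal axis) for CTCF and H3K27ac. Red points are BBC3, blue points the other 9 genes, and black bars the median of all tested intervals in each GC class. BBC3 points lie above the bars for CTCF and below them for H3K27ac.

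Other genes of the pathway were examined at their start sites. Of 30 further p53 target genes, 28 had start-site intervals; CTCF was higher at 9 and lower at 3 of 32 tested intervals, and H3K27ac higher at 5 and lower at 14 of 38. All tested start-site intervals had 29.1% higher and 10.3% lower for CTCF, so the CTCF count lay at the background, and 9.94% higher and 26.9% lower for H3K27ac. RAD21 was called at 1 of 24 and eGFP-YAP at 1 of 29, both higher and both at PMAIP1, which encodes the BH3 protein NOXA. Over all tested start-site intervals 2.76% were higher for RAD21 and 2.91% for eGFP-YAP, so these counts lay near the background. At PMAIP1 CTCF went from 8.69 and 8.28 to 58.5 and 40.7 CPM (2.54 ± 0.24), and H3K27ac from 48.2 and 52.3 to 22.3 and 21.1 (-1.21 ± 0.12). The groups did not overlap in either case. CTCF also rose at RRM2B, a ribonucleotide reductase subunit, by 1.56. H3K27ac fell at PIDD1, a death domain adaptor, by 1.62, and rose at TRIAP1, an inhibitor of apoptosis, by 0.85, and at PERP, a membrane protein, by 0.57. CTCF was called lower on few counts at FAS, a death receptor, and at APAF1, the apoptosome scaffold. FAS had 37 counts in vehicle and 2 in sorbitol, a ratio of 6.88 with a counting interval of 1.78 to 59.0, and APAF1 had 42 and 3, a ratio of 5.21 (1.66 to 26.3).

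Among 19 p53 regulators and partners, CTCF was higher at 2 and lower at 1 of 26 tested start-site intervals, and H3K27ac higher at 1 and lower at 9 of 32. The start-site background was 29.1% and 10.3% for CTCF and 9.94% and 26.9% for H3K27ac, so the share with lower H3K27ac lay near it. eGFP-YAP was called at 1 of 27, near its start-site background of 2.91% higher. That interval was at PRKDC, the DNA-dependent protein kinase, where eGFP-YAP rose by 1.60 and CTCF by 2.04. CTCF at EP300, an acetyltransferase and coactivator, went from 22.7 and 14.7 to 48.1 and 40.7 CPM (1.22 ± 0.22, adjusted p = 0.0002). H3K27ac at TP53BP1, a DNA damage response protein, went from 18.5 and 20.8 to 9.50 and 10.9 CPM (-0.95 ± 0.19, adjusted p = 0.00025). H3K27ac fell at TP73, a p53 relative, by 0.83 and rose at ATR, a damage-sensing kinase, by 0.34, and CTCF fell at the related kinase ATM by 0.74 on the log2 scale. Among 12 cell cycle genes that p21 lowers, CTCF was higher at 4 of 14 and H3K27ac higher at 2 and lower at 4 of 16, shares near the same background for higher CTCF and lower H3K27ac. CTCF rose at E2F1 (1.80) and CDC25C (1.01), H3K27ac rose at PLK1 (0.52) and CCNA2 (0.34), and it fell at CDC25C (-0.59) and CDC20 (-0.39). The CTCF and H3K27ac values of CDC25C came from different start-site intervals. Among 14 immediate early and stress genes, CTCF was higher at 18 and lower at 1 of 25, and H3K27ac higher at 1 and lower at 18 of 29, beside the same background. At GADD45B, a stress gene of that list, CTCF rose by 5.20 on the log2 scale, more than at any member start-site interval. RAD21 rose there by 4.27, eGFP-YAP by 4.75, and H3K27ac fell by 2.02. At FOSB, an AP-1 subunit, CTCF rose by 3.74 and RAD21 by 2.99 at the same start-site interval. H3K27ac fell by 1.80 at another and rose by 1.19 at a further one, the latter on 15, 8, 28 and 45 counts. eGFP-YAP rose at EGR1 by 2.32, and CTCF fell at EGR2 by 1.18; both are zinc finger factors.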

How the data were processed

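CUT&Tag libraries were compared within each antibody, sorbitol against vehicle. The authors deposited whole-number read counts per interval for 16 libraries over 1 shared set of 74404 intervals, not scaled between libraries; whether peaks were called per library or pooled is not given in the sources used here. Per the submitters' processing notes, which give no order or role, the tools were Trim Galore, FastQC, BWA 0.7.17, SAMtools, Picard, bedtools 2.31.1 and MACS2 2.2.6, with builds hg38 and GRCh38. All intervals lay within hg38 chromosome lengths. Interval starts count from 0 in the file; printed coordinates count from 1. Sequences were read from the hg38 reference genome, and genes from GENCODE release 44.

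Each antibody was fitted on its 4 libraries with edgeR 4.0.16 in R 4.3.3 (quasi-likelihood, robust, two-sided), TMM over tested intervals, filterByExpr with a minimum of 10 counts, and Benjamini-Hochberg adjustment over all tested intervals. Standard errors derive from the F statistic. Differences between antibodies are interaction terms over 8 libraries. DESeq2 1.42.0, other scalings, GC-corrected offsets, other filters, 1 fit on all libraries, a replicate block and leaving out each library were tried as alternatives. The scripts were tested on simulated data. All 10 members are described; beside their most acetylated start intervals, the intervals named are up to 4 with the largest rise and 4 with the largest fall per antibody, and for each pathway list the 2 largest rises and falls. Other called member intervals, and those with sequence matches, were named after their values were seen. Members and lists were chosen with earlier results of these data known. Genes of 2 lists are not reported here and were left out of their counts. A control antibody library was not analysed here, and floors of 3 counts and the exact (Clopper-Pearson) intervals of count ratios cover counting error only.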

Additional observations from a re-analysis of the deposited data

Results flagged for a closer look

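By the edgeR interaction test (Benjamini-Hochberg adjusted p under 0.05 over all tested intervals), 37 differences in sorbitol response between 2 antibodies were called. Each belongs to a given interval and pair of antibodies, and an interval can appear for several pairs. Values are differences of log2 fold changes. PLK3 +5.9 and +13.4 kb, SESN1 +21.3 kb and ZMAT3 +2.6 kb passed the CTCF count filter only through 1 group. A difference from CTCF was thus built in there. H3K27ac minus CTCF at BBC3 was -4.33 at +4.9 kb, -5.32 at +4.0 kb, -4.57 at +3.0 kb, -3.72 at +0.5 kb, -3.34 at -0.1 kb and -3.61 at -10.0 kb. It was -1.42 over the CDKN1A start, -1.81 at CDKN1A +0.9 kb and -1.45 at BTG2. At PLK3 it was -1.02 at -0.3 kb, -6.36 at +5.9 kb (a fitted value against 4 and 1 CTCF counts in vehicle, not tested for H3K27ac alone), -2.20 at +7.7 kb and -2.44 at +13.4 kb. It was above 0 at SESN1 +21.3 kb (3.02), SESN1 +12.5 kb (2.34) and ZMAT3 +2.6 kb (7.53, a fitted value against 0 counts and so no bound).

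eGFP-YAP minus CTCF at BBC3 was -1.22 at +4.9 kb, -1.71 at +4.0 kb, -1.84 at +3.0 kb, -1.29 at +0.5 kb, -2.44 at -0.1 kb and -2.34 at -10.0 kb. It was -1.41 over the CDKN1A start, -1.33 at MDM2 +0.1 kb, -2.09 at BTG2, -1.11 at PPM1D +0.3 kb, -3.49 at PLK3 +5.9 kb, -1.87 at PLK3 +7.7 kb and -1.71 at SESN1 -0.2 kb. At PLK2 it was 1.20, the single positive difference of this pair.

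H3K27ac minus eGFP-YAP at BBC3 was -3.29 at +4.9 kb, -3.79 at +4.0 kb, -2.94 at +3.0 kb and -2.64 at +0.5 kb. It was -1.44 at PLK2, 1.07 at PPM1D +0.3 kb and 0.97 at SESN1 -0.2 kb. All 4 libraries of an antibody, vehicle and sorbitol, are shared between differences that name it, so these counts are not independent of each other.

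Of the 37 differences, 24 kept their call in every alternative that gave a value and 13 lost it in at least 1. For H3K27ac minus CTCF these were PLK3 -0.3 kb (-0.026 with GC-corrected offsets), PLK3 +13.4 kb, the CDKN1A start, SESN1 +21.3 kb and SESN1 +12.5 kb, all lost with GC-corrected offsets. PLK3 -0.3 kb and the CDKN1A start were also lost with scaling to the total count, and SESN1 +12.5 kb, kept in 1 of 4 alternatives, with no count filter and with the replicate block. For eGFP-YAP minus CTCF, BBC3 +4.9 kb (-0.11 with GC-corrected offsets), BBC3 +0.5 kb (-0.21), MDM2 +0.1 kb, PPM1D +0.3 kb and the CDKN1A start were lost with GC-corrected offsets and with a mean of at least 50 counts, the CDKN1A start also with the replicate block, and PLK3 +5.9 kb with GC-corrected offsets. The PLK2 difference was lost with scaling to the total count and with no count filter, and for H3K27ac minus eGFP-YAP the PLK2 difference with scaling to the total count.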

How the results depend on the processing

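The deposited counts limit RAD21 most, at 1187939 to 2295019 per library. Called member intervals under the alternatives were as follows, and where no cause is named the cause was not tested. Scaling to the total count, which moves the median of all tested intervals to -1.04 (CTCF), -0.60 (RAD21), -1.46 (eGFP-YAP) and 0.17 (H3K27ac), gave 11 higher and 6 lower for CTCF, 1 for RAD21, 14 for eGFP-YAP, all lower, 1 higher and 12 lower for H3K27ac, and 13 for H3K27ac minus eGFP-YAP. Over all tested intervals that scaling called 2109 higher and 21042 lower of 39261 for CTCF, and 1451 of 17011 for RAD21. It called 14465 of 22765 lower for eGFP-YAP, and 8117 higher and 5901 lower of 56601 for H3K27ac. For H3K27ac minus eGFP-YAP it called 18327 of 52935. The 14 eGFP-YAP calls were among 21 tested members, a share near that of all tested intervals. Scaling to the weakest 25% gave 5 for RAD21, beside 1532 of 17011 over all tested intervals. A mean of at least 50 counts, which tests fewer intervals, gave 11 for CTCF, 0 for RAD21 (1 tested) and 7 for eGFP-YAP minus CTCF. Over all intervals tested with that filter the calls were 5927 of 10677, 334 of 1068 and 1857 of 7439. DESeq2 gave 1 for RAD21 (and no adjusted p at BBC3 +4.9 and +4.0 kb), 1 fit on all libraries 5 for RAD21 and 9 for H3K27ac, and GC-corrected offsets 8 for eGFP-YAP minus CTCF. Over all tested intervals DESeq2 called 456 of 17011 for RAD21. The 1 fit on all libraries called 2831 for RAD21 and 3705 for H3K27ac, each of 57620. GC-corrected offsets called 3227 of 43735 for eGFP-YAP minus CTCF. Leaving out each library, where the lone library left is assumed to vary like the others, gave 14 to 18 for CTCF, 3 to 5 for RAD21 (5 without the first sorbitol library), 2 to 6 for eGFP-YAP (3 and 2 without the first and the second vehicle library) and 13 to 15 for H3K27ac.

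Some single values changed sign. With scaling to the total count CTCF stood at -0.27 at PLK3 -0.3 kb, -0.71 at PPM1D +0.3 kb, -0.43 at CDKN1A +1.8 kb and -0.063 at SESN1 -0.2 kb, and eGFP-YAP at -1.24 at PLK3 -0.3 kb, -0.063 at BBC3 +3.0 kb and -0.12 at PLK2. With GC-corrected offsets CTCF at PLK3 -0.3 kb was -0.025, and -0.023 also with the replicate block. With scaling to the weakest 25% H3K27ac at PPM1D +0.3 kb was -0.21. The change in the ZMAT3 log2 ratio of body to start was -0.12 without the first vehicle library. It lay between -0.12 and 0.35 over the libraries left out. For CDKN1A the range of this change was 0.16 to 0.37 and for SESN1 0.64 to 1.03. CDKN1A gives no ratio with a 2 kb start window.

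Replicate numbers are shared across groups, but deviations of same-numbered libraries did not correlate within an antibody (-0.009 to 0.005, 2 pairs each). No shared effect of the numbers was thus seen. Whether they mark shared cultures is not given, and pairing across antibodies was not tested. With the replicate number as a block, called member intervals were 17 for CTCF, 3 for RAD21, 4 for eGFP-YAP and 16 for H3K27ac. Over all tested intervals the calls were 13804 of 39261, 471 of 17011, 1327 of 22765 and 13271 of 56601.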
